A study of Mus musculus with 70 samples.

Results

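The levels of 10 heat shock and co-chaperone genes were followed through the mouse hippocampus. They were Hsph1, Hspa8 and Hspa1b of the HSP70 system, Hsp90aa1 and its partner Stip1, the J-domain co-chaperones Dnaja4 and Dnajb1, the small heat shock protein Hspb1, and the chaperonin pair Hspd1 and Hspe1. The genes were taken by name from the normalized expression table, and all 10 are among its 14260 genes. The list was drawn up as cytosolic heat shock genes. That holds for 8 of them, whereas Hspd1 and Hspe1 encode proteins known to work in the mitochondrion, and they are described apart. Hippocampus from 1 hemibrain was profiled by poly-A RNA sequencing in 69 mice. The transgenic mice (TG, 37 animals) were APP23, strain B6.Cg-Tg(Thy1-APP)3Somm/J, which carry human APP driven by the Thy1 promoter, a promoter used for neuronal expression. Their non-transgenic littermates (NTG, 32 animals) were the controls. Under time-restricted feeding (TRF) the daily food window lasted 6 h, from ZT15 to ZT21 (ZT, Zeitgeber time), and the other mice fed ad libitum (ALF). This gave 18 TG mice on TRF, 19 TG mice on ALF, 16 NTG mice on TRF and 16 NTG mice on ALF. The mice were 6 to 9 months old at the start of TRF and 10 to 13 months old when tissue was taken. All mice lived under 12 h of light and 12 h of dark, with lights on at ZT0 and off at ZT12. Tissue was taken at ZT0 (25 animals), ZT6 (11), ZT12 (23) and ZT18 (10), in the light at ZT0 and ZT6 and in the dark at ZT12 and ZT18. The labels describe a design balanced for sex but do not give the sex of single animals.

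Heat shock proteins are chaperones that bind unfolded chains and help them fold, refold or be degraded. HSP70 proteins bind and release clients with the help of J-domain co-chaperones, and HSP110 proteins such as the product of Hsph1 exchange their nucleotide. STIP1, also called HOP, links HSP70 to HSP90. Many of these genes are switched on by heat shock factor 1 through heat shock elements, inverted repeats of the unit GAA, and several of them are known to follow the daily rhythm of body temperature in other mouse tissues.

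The promoter windows of the 5 members with the smallest p between times are printed first, because the element that heat shock factor 1 is known to bind can be read in some of them and not in others. Each runs from 250 bases before to 50 bases after an annotated transcript start (RefSeq, GRCm38.p6), from 5′ to 3′ on the strand of the gene. Capitals mark GAANNTTC and TTCNNGAA, the 2 ways in which adjacent units meet. Each is its own reverse complement, so 1 search covers both strands, and neighbouring matches may overlap. The windows lie at chr5:149636287-149636586 on the minus strand (Hsph1), chr17:34959189-34959488 on the minus strand (Hspa1b), chr19:7039977-7040276 on the minus strand (Stip1), chr9:54699309-54699608 on the plus strand (Dnaja4) and chr5:135887669-135887968 on the plus strand (Hspb1). Where a gene has 2 windows, the one with more matches is shown.
Hsph1: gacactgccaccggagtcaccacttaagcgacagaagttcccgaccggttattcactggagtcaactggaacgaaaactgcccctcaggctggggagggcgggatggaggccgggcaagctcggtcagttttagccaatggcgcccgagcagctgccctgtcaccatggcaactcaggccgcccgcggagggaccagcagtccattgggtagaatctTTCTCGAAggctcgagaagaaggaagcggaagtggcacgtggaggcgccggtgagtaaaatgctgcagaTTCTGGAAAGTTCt
Hspa1b: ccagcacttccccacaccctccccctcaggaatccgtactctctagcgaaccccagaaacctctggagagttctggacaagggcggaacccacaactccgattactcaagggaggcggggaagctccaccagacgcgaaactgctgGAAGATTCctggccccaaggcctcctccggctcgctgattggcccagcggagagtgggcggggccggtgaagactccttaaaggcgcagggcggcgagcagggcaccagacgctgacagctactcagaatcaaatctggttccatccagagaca
Stip1: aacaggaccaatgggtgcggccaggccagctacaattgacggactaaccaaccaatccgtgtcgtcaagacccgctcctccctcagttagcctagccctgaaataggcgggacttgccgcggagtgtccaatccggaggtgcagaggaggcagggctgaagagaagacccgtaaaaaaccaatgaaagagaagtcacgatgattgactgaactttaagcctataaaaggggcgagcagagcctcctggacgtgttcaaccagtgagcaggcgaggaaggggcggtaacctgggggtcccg
Dnaja4: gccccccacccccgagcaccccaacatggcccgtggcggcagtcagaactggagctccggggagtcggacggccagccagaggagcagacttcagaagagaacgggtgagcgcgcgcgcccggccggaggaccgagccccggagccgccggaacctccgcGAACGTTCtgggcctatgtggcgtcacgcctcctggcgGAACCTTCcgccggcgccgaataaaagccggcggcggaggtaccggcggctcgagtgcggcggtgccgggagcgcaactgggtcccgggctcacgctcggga
Hspb1: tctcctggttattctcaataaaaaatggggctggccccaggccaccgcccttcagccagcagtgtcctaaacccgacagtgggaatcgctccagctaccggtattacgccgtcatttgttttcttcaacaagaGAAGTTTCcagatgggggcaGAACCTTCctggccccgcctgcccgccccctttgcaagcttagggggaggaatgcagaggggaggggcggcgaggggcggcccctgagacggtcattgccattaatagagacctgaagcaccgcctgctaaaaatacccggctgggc

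The Hsph1 window holds 3 matches, 2 of which overlap to form the 3-unit element (GAANNTTC followed by NNGAA, or TTCNNGAA followed by NNTTC) just after the start. Dnaja4 and Hspb1 hold 2 matches each, Hspa1b holds 1, and Stip1 holds none. RefSeq windows were matched by symbol for 8 of the 10 members. Of these 8, 6 hold a match in at least 1 window, against 17% of all 27025 symbols with a window, and Stip1 and Dnajb1 hold none. A 3-unit element lies in windows of 3 members, Hsph1, Hspe1 and Hspd1, against 0.662% of all symbols. Hspe1 and Hspd1 are read in opposite directions from 1 shared stretch of chromosome 1, so their element is the same DNA. Per window, 15.1% of 32851 windows hold GAANNTTC or TTCNNGAA, and 0.603% hold the 3-unit form. A match is a string of letters and says nothing about binding.

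Levels between genes can be compared only per length. The length used was that of the exons of all annotated transcripts of a gene joined, 7266 bases for Hsph1 and 1474 for Hspe1. Another choice of length, such as that of 1 transcript, can change the order. Per kb of exon sequence (GENCODE vM21, GRCm38), Hspa8 and Hsp90aa1 were the most abundant members, with means of 12750.1 and 9559.9 normalized counts per kb over all animals. Stip1 followed with 3136 normalized counts per kb, Hspd1 with 2556, Hsph1 with 1511 and Hspe1 with 1244. The J-domain genes were lower, at 759 normalized counts per kb for Dnaja4 and 616 for Dnajb1. The genes best known for their induction by stress were the lowest, Hspb1 at 256 normalized counts per kb and Hspa1b at 166. Some of these counts can include reads of near-identical or overlapping sequence. Windows of 150 bases of the longest protein-coding transcript of each gene were looked up in other annotated genes. They also occur there for 56.0% of Hspa8, 40.5% of Hspa1b (shared with Hspa1a and Hspa1l among others), 36.6% of Hspb1 and 36.2% of Hsp90aa1. For Dnaja4 the share was 50.2%, all of it with Wdr61 on the opposite strand, and whether the reads were counted by strand is not given in the sources used here. Hspe1 and Hspd1 overlap at their starts on opposite strands, and 14.1% and 18.6% of their windows also occur in other genes. The share was 0.766% for Stip1 and 0 for Hsph1 and Dnajb1, so the values of these 3 genes are the most certain in origin.

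All 14 marker genes of hippocampal neurons were listed, and none was at 0 in any library. That also held for the markers of every other cell type but the choroid plexus, so it cannot check the tissue label. Markers of the choroid plexus, a neighbouring tissue, varied widely between animals, with summed levels from 3019 to 251015 normalized counts, and 4 of the 20 (Aqp1, Slc4a5, Steap1 and Tmem72) were at 0 in at least 1 library. None of the 20 passed the test between ZT12 and ZT0 or between ZT18 and ZT6. The animals were also sorted into number series by the digit before the last 2 of the animal number (0 where there is none), whose meaning the labels do not give. It was 3 in all 21 animals of ZT6 and ZT18 and in 3 of the 48 animals of ZT0 and ZT12. Time and number series therefore cannot be told apart where ZT6 or ZT18 is set against ZT0 or ZT12. The contrasts read here are therefore ZT12 against ZT0, and ZT18 against ZT6.

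Most members passed the test for time of sacrifice. At ZT12, the end of the rest phase, 8 of the 10 members were lower than at ZT0, the end of the active phase, and none was higher (limma, adjusted p under 0.05). Over all 14260 genes, 27.9% passed this test and 13.6% were lower. The median log2 fold change of the 10 members was -0.30, against 0.0028 over all genes. At ZT18, in the middle of the dark phase, 5 members were higher than at ZT6, in the middle of the light phase, and none was lower. Each TG feeding group had 4 animals at ZT6 and 3 at ZT18. NTG mice on TRF had 2 and 2, and NTG mice on ALF had 1 and 2. The contrast of ZT18 with ZT6 was therefore read over all groups and not tested within any of them. Here 8.04% of all genes passed and 4.27% were higher, and the median log2 fold change was 0.22 for the members and 0.00094 for all genes. In the F test over all 4 times, 9 members passed, against 35.6% of all genes, but that test also takes in the number series. The members were chosen with earlier results of these data known, so the shares over all genes are given for scale and do not test the family. In a bulk tissue, fewer cells of a type and less RNA per cell cannot be told apart.

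**Figure D1:**
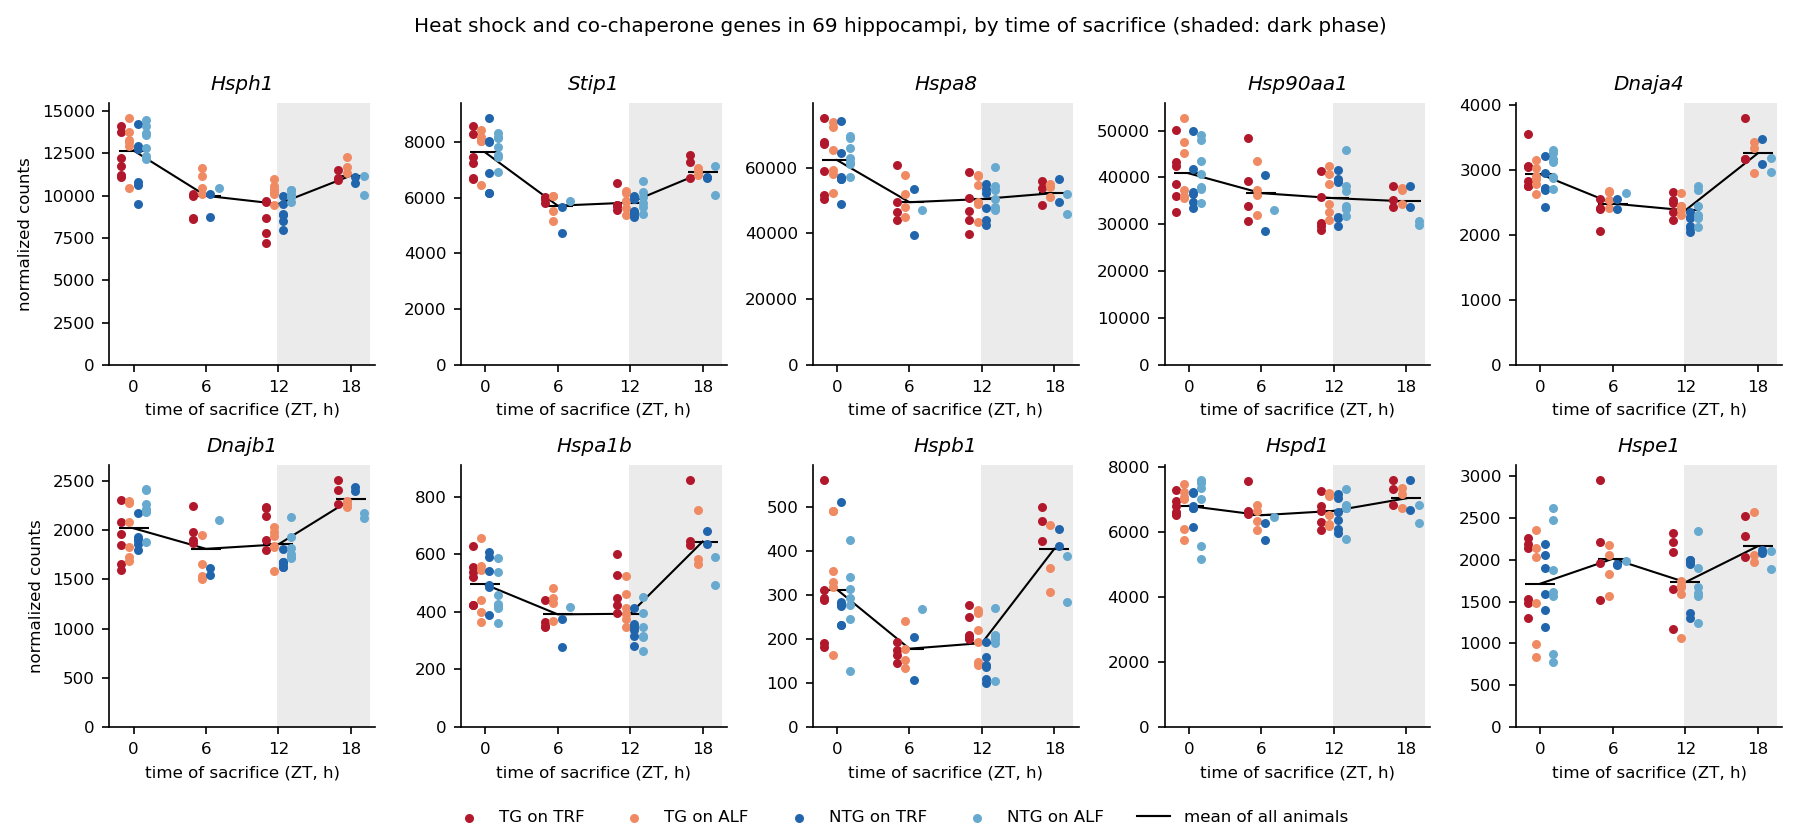
Normalized counts of the 10 members (vertical axis, from 0, own scale for each gene) at the time of sacrifice in ZT hours (horizontal axis), with 1 point per animal coloured by genotype and feeding, and the mean of all animals at each time as a line. Stip1, Dnaja4, Hspa1b and Hspb1 stand higher in all 10 animals at ZT18 than in any of the 11 at ZT6, and the values of Hspd1 and Hspe1 overlap at all times.

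Hsph1 encodes an HSP110 chaperone. It ran from 9510 to 14618 normalized counts at ZT0 (median 12962.5), 8654 to 11617 at ZT6 (median 10082), 7219 to 10988 at ZT12 (median 9669) and 10031 to 12312 at ZT18 (median 11135). All 23 animals of ZT12 lay below the ZT0 median, and 21 of the 25 animals of ZT0 lay above the highest of ZT12. The log2 fold change of ZT12 over ZT0 was -0.41 ± 0.04 (SE, adjusted p = 9.72e-14, limma), which is 0.751 times the ZT0 level. ZT18 was above ZT6 by 0.16 ± 0.06 on the log2 scale, which did not pass the test (adjusted p = 0.0651, limma).

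Hspa8 encodes the constitutive HSP70 of the cytosol, which also strips clathrin coats from vesicles. Its values were 48785 to 75178 normalized counts at ZT0 (median 61679), 39633 to 60656 at ZT6 (median 48159), 39761 to 60148 at ZT12 (median 50399) and 45897 to 56680 at ZT18 (median 52740). All 23 ZT12 animals were below the ZT0 median, whereas ZT6 and ZT18 overlapped over most of their range. The log2 fold change was -0.30 ± 0.05 for ZT12 over ZT0 (adjusted p = 1.2e-06, limma) and 0.09 ± 0.07 for ZT18 over ZT6 (adjusted p = 0.543, limma).

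Hspa1b encodes the stress-inducible HSP70. It had 360 to 655 normalized counts at ZT0 (median 494), 277 to 482 at ZT6 (median 376), 264 to 603 at ZT12 (median 391) and 494 to 859 at ZT18 (median 633). The 10 animals of ZT18 were all above the 11 of ZT6, while ZT12 and ZT0 overlapped, with 20 of 23 ZT12 animals below the ZT0 median. The log2 fold change was 0.75 ± 0.11 for ZT18 over ZT6 (adjusted p = 9.64e-07, limma), 1.68 times the ZT6 level, and -0.34 ± 0.07 for ZT12 over ZT0 (adjusted p = 0.000166, limma). Its near-identical neighbour Hspa1a, the other inducible HSP70 gene, had 0.42 ± 0.12 for ZT18 over ZT6 (adjusted p = 0.0172, limma) and -0.14 ± 0.08 for ZT12 over ZT0 (adjusted p = 0.186, limma). Reads of the 2 genes cannot be fully told apart.

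Hsp90aa1 encodes the inducible form of cytosolic HSP90. Its values were 32635 to 52764 normalized counts at ZT0 (median 38594), 28549 to 48480 at ZT6 (median 36207), 28868.5 to 45800.3 at ZT12 (median 34352) and 29897 to 38277 at ZT18 (median 34717). All 4 times overlapped, and 15 of 23 ZT12 animals were below the ZT0 median. ZT12 was lower than ZT0 by a log2 fold change of -0.20 ± 0.06 (adjusted p = 0.00596, limma). ZT18 over ZT6 was -0.06 ± 0.09 (adjusted p = 0.775, limma). The ZT12 difference was -0.13 and no longer passed (adjusted p = 0.0953, limma) when the 5 animals whose libraries correlated least with the others were left out, namely 1 of TG on TRF at ZT12, 2 of TG on ALF at ZT0 and 2 of NTG on ALF at ZT0 (labelled TG_TRF_12_104, TG_ALF_0_5, TG_ALF_0_16, WT_ALF_0_1 and WT_ALF_0_107).

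Stip1, which carries clients from HSP70 to HSP90, differed between the times in both contrasts. It ran from 6149 to 8865 normalized counts at ZT0 (median 7976), 4716 to 6070.2 at ZT6 (median 5868), 5303 to 6610.0 at ZT12 (median 5745) and 6094 to 7527 at ZT18 (median 6884). Of the 23 animals of ZT12, 18 were below the lowest of ZT0. Every animal of ZT18 was above every animal of ZT6, although the highest at ZT6 and the lowest at ZT18 nearly met. The log2 fold change was 0.28 ± 0.05 for ZT18 over ZT6 (adjusted p = 0.000176, limma) and -0.38 ± 0.03 for ZT12 over ZT0 (adjusted p = 5.74e-14, limma), rank 15 by p among all genes.

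Dnaja4 encodes a J-domain protein that stimulates HSP70. It had 2433 to 3550.3 normalized counts at ZT0 (median 2883), 2057 to 2679 at ZT6 (median 2536), 2049 to 2758 at ZT12 (median 2357) and 2948 to 3803 at ZT18 (median 3174). Its daily range was narrow between animals and wide between times: no ZT18 animal fell to the highest ZT6 value, and 14 of 23 ZT12 animals were below the lowest of ZT0. ZT18 exceeded ZT6 by 0.39 ± 0.05 on the log2 scale (adjusted p = 2.13e-07, limma), rank 8 by p among all genes. ZT12 over ZT0 was -0.30 ± 0.03 (adjusted p = 2.22e-10, limma).

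Dnajb1, known as HSP40, is the other J-domain member and a classical target of heat shock factor 1. It had 1597.5 to 2422 normalized counts at ZT0 (median 1964), 1505 to 2242 at ZT6 (median 1868), 1581 to 2234 at ZT12 (median 1824) and 2121 to 2513 at ZT18 (median 2285). ZT18 was higher than ZT6, with 7 of its 10 animals above the highest ZT6 value and a log2 fold change of 0.36 ± 0.07 (adjusted p = 0.000107, limma). Between ZT12 and ZT0 the ranges overlapped almost fully. The log2 fold change there was -0.11 ± 0.04 (adjusted p = 0.042, limma). That call did not hold with equal library totals, with ZT0 and ZT12 fitted alone or with a choroid plexus covariate (adjusted p = 0.162, 0.0532 and 0.0582, limma), and it was lost when any 1 of 24 single animals of the 69 was left out (highest adjusted p = 0.0669, limma).

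Hspb1 encodes the small heat shock protein known as HSP25 or HSP27, which holds unfolded proteins without ATP. It had the largest changes of the 10 members on the log2 scale and also the widest spread between animals. Its values were 126.1 to 561 normalized counts at ZT0 (median 292), 106.5 to 268 at ZT6 (median 174), 99.6 to 276 at ZT12 (median 199) and 284 to 499 at ZT18 (median 416). ZT18 did not overlap ZT6, and the log2 fold change was 1.22 ± 0.19 (adjusted p = 3.6e-06, limma), 2.33 times the ZT6 level. All 23 ZT12 animals lay below the ZT0 median, but 20 of them lay within the ZT0 range. ZT12 over ZT0 was -0.68 ± 0.12 (adjusted p = 2.1e-05, limma), 0.625 times the ZT0 level.

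Hspd1 and Hspe1 encode HSP60 and HSP10, the chaperonin of the mitochondrial matrix and its lid. Hspd1 stayed between 5193 and 7622 normalized counts over all times, and its medians for ZT0, ZT6, ZT12 and ZT18 were 6960.4, 6559, 6752 and 7009. Neither contrast passed for Hspd1, with -0.03 ± 0.04 for ZT12 over ZT0 (adjusted p = 0.559, limma) and 0.11 ± 0.05 for ZT18 over ZT6 (adjusted p = 0.198, limma). Hspe1 ran from 782 to 2614 normalized counts at ZT0 (median 1618), 1515 to 2958 at ZT6 (median 1962), 1061 to 2344 at ZT12 (median 1691) and 1885 to 2577 at ZT18 (median 2092). Its scatter between animals was far wider than that of Hspd1, and its log2 fold changes were 0.06 ± 0.11 for ZT12 over ZT0 (adjusted p = 0.682, limma) and 0.12 ± 0.16 for ZT18 over ZT6 (adjusted p = 0.72, limma). The lowest Hspe1 values at ZT0 were 782, 842, 871 and 990 normalized counts, in the animals labelled WT_ALF_0_1, TG_ALF_0_5, WT_ALF_0_107 and TG_ALF_0_16. Their libraries are among the 5 that correlated least with the others, and their part in the scatter of Hspe1 was not tested. Of this pair, Hspe1 passed the F test over all 4 times (adjusted p = 0.0497, limma) and Hspd1 did not (adjusted p = 0.248, limma).

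**Figure D2:**
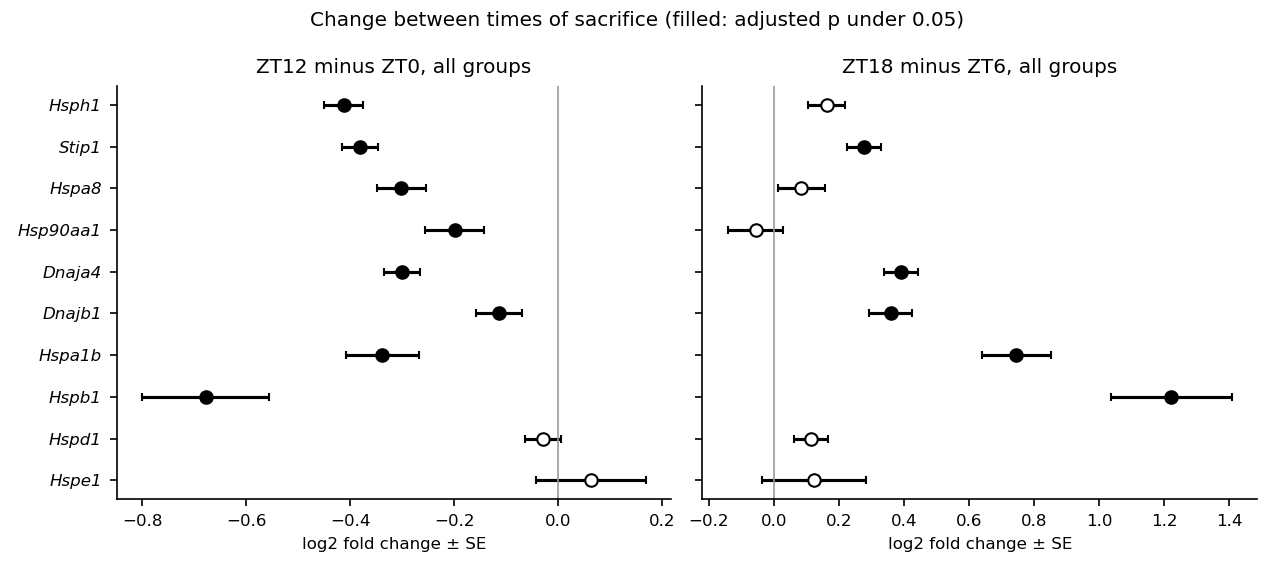
Log2 fold change of each member (horizontal axis, with its SE) between ZT12 and ZT0 on the left and between ZT18 and ZT6 on the right, over all genotypes and feedings, with filled points where the adjusted p of limma was under 0.05. On the left 8 members are filled and lie below 0, from Hspb1 at -0.68 to Dnajb1 at -0.11. On the right Hspb1 (1.22) and Hspa1b (0.75) lie farthest above 0, and Hspa8 and Hsp90aa1 are near it.

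The members fell into sets by their values in the 2 contrasts. Stip1, Dnaja4, Hspa1b, Hspb1 and Dnajb1 passed in both, lower at ZT12 than at ZT0 and higher at ZT18 than at ZT6. Hsph1, Hspa8 and Hsp90aa1 passed between ZT12 and ZT0 and not between ZT18 and ZT6, and whether the contrasts differ for a gene was not tested. The ranges at ZT18 and ZT6 did not overlap for 4 of the 10 members, against 0.568% of all genes. Between ZT12 and ZT0, with more animals, no member was without overlap, and only 0.014% of all genes were.

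Within the number series the ZT12 change kept its direction for most members. The difference of log2 levels, ZT12 minus ZT0, was fitted in each series with a term for each genotype and feeding group. A group with animals at only 1 of these times adds nothing to it. In the animals with digit 0 (7 at ZT12, 8 at ZT0) it was -0.45 ± 0.04 for Hsph1, -0.46 ± 0.04 for Stip1, -0.36 ± 0.05 for Dnaja4 and -0.62 ± 0.29 for Hspb1 (SE). In those with digit 1 (12 and 11 animals) it was -0.45 ± 0.05 for Hsph1, -0.40 ± 0.05 for Stip1, -0.32 ± 0.05 for Dnaja4 and -0.83 ± 0.18 for Hspb1. With digit 2 (3 and 4 animals) it was -0.25 ± 0.08 for Hsph1, -0.26 ± 0.06 for Stip1, -0.17 ± 0.05 for Dnaja4 and -0.63 ± 0.18 for Hspb1. The sign was negative in all 3 series also for Hspa8, Hspa1b and Hsp90aa1. Dnajb1 was -0.21 ± 0.07 and -0.16 ± 0.05 with digits 0 and 1, and 0.06 ± 0.17 with digit 2. The series with digit 3 had 1 animal at ZT12 and 2 at ZT0, too few for a value.

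The same contrast was then read within each genotype and feeding, which asks whether the daily change is kept in transgenic mice and under restricted feeding. In TG mice on TRF 4 members were lower at ZT12 than at ZT0 (3.55% of all genes passed, 2.07% lower), in TG mice on ALF 3 (2.22% passed, 1.21% lower), in NTG mice on TRF 5 (0.596% passed, 0.358% lower) and in NTG mice on ALF 4 (2.17% passed, 1.23% lower). Hsph1, Stip1 and Dnaja4 passed in all 4 groups. Hsph1 had log2 fold changes of -0.53 ± 0.08 in TG mice on TRF, -0.34 ± 0.08 in TG mice on ALF, -0.39 ± 0.08 in NTG mice on TRF and -0.40 ± 0.07 in NTG mice on ALF. For Stip1 they were -0.35 ± 0.08 in TG mice on TRF, -0.42 ± 0.07 in TG mice on ALF, -0.37 ± 0.07 in NTG mice on TRF and -0.38 ± 0.07 in NTG mice on ALF. Dnaja4 had -0.29 ± 0.07 in TG mice on TRF, -0.24 ± 0.07 in TG mice on ALF, -0.34 ± 0.07 in NTG mice on TRF and -0.33 ± 0.07 in NTG mice on ALF. Of these, Hsph1 had the widest range of values, from TG mice on TRF to TG mice on ALF. That pair was not tested by itself. Feeding by time over both genotypes did not pass for Hsph1 (-0.09 ± 0.08, adjusted p = 0.972, limma). Each other call was made in 1 group: Hspa8 in TG mice on TRF (-0.36 ± 0.10), Hspa1b (-0.59 ± 0.14) and Hspb1 (-1.08 ± 0.24) in NTG mice on TRF, and Dnajb1 in NTG mice on ALF (-0.27 ± 0.08).

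These calls rest on 5 to 7 animals per time. With equal library totals Dnaja4 no longer passed in TG mice on TRF, TG mice on ALF or NTG mice on TRF (adjusted p = 0.149, 0.2 and 0.0723, limma), nor Dnajb1 in NTG mice on ALF (adjusted p = 0.113, limma). Without the animal labelled TG_TRF_0_102, only 2 members passed in that group, and without the NTG animal labelled WT_TRF_0_116, only 3 passed in that one. The call of Hspa8 in TG mice on TRF was lost with the number series or the ribosomal level as a covariate (adjusted p = 0.0951 and 0.059, limma), and when any 1 of 7 single animals was left out (highest adjusted p = 0.143, limma). In NTG mice on TRF, Hspb1 had 99.6 to 194 normalized counts at ZT12 (median 138) and 231 to 510.1 at ZT0 (median 277), with no overlap between the times. In TG mice on TRF it had 198.8, 204.1, 208.5, 249.4 and 275.9 normalized counts at ZT12 and 182 to 561 at ZT0 (median 291), where the times overlapped.

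**Figure D3:**
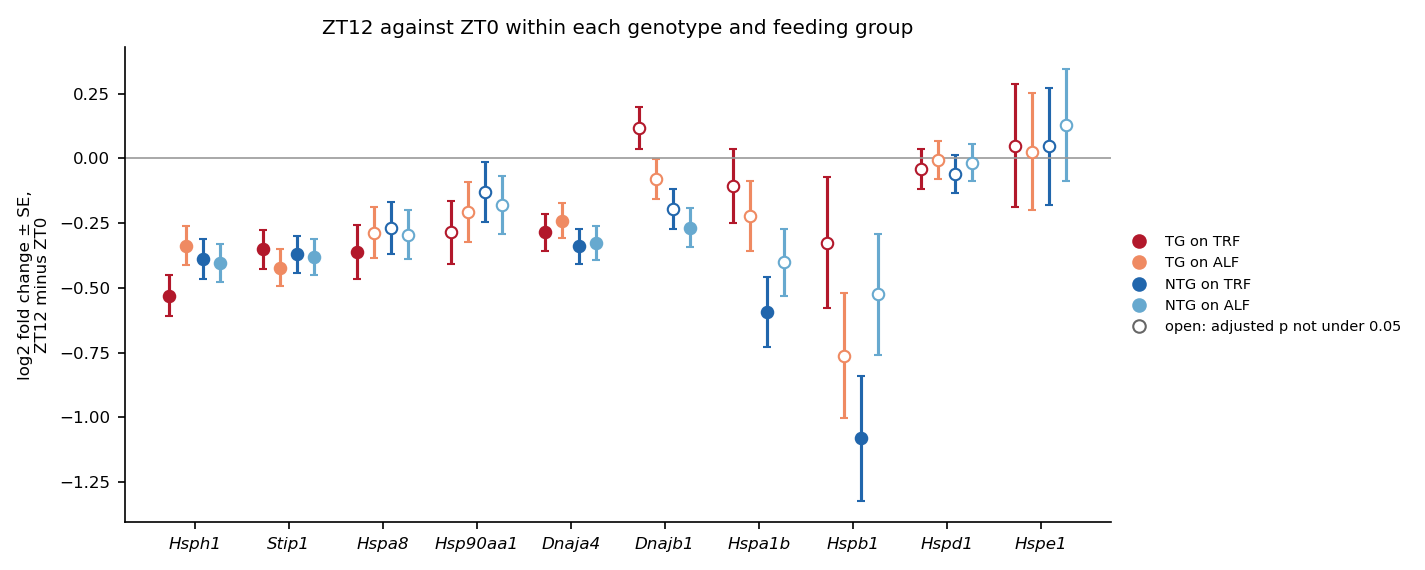
Log2 fold change of ZT12 over ZT0 (vertical axis, with its SE) for each member in TG mice on TRF, TG mice on ALF, NTG mice on TRF and NTG mice on ALF, from left to right within each gene, with open points where the adjusted p of limma was not under 0.05. Hsph1, Stip1 and Dnaja4 are filled in all 4 groups, while Hspb1 spreads from -0.33 in TG mice on TRF to -1.08 in NTG mice on TRF, with SEs of 0.23 to 0.25.

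The difference between groups in this change was tested directly. Feeding by time gave 0 members by limma, 0 of all genes, 0 members at an unadjusted p under 0.05 and 489 genes at that level. Genotype by time also gave 0 members and 0 genes by limma, with 2 members and 694 genes at an unadjusted p under 0.05. The 2 were Dnajb1, whose ZT12 change was higher in TG than in NTG mice by 0.25 ± 0.08 on the log2 scale (adjusted p = 0.989, limma), and Hspa1b, by 0.33 ± 0.14 (adjusted p = 0.989, limma). Dnajb1 had 1803 to 2234 normalized counts at ZT12 and 1597.5 to 2308 at ZT0 in TG mice on TRF, and 1581 to 2030.0 at ZT12 and 1689 to 2292 at ZT0 in TG mice on ALF. In NTG mice on TRF it had 1623 to 1813 at ZT12 and 1801 to 2175 at ZT0, and in NTG mice on ALF 1721 to 2133 at ZT12 and 1879.95 to 2422 at ZT0. The times overlapped in all 4 groups. No difference between groups in the change between ZT0 and ZT12 was detected for any member. Whether the change between ZT6 and ZT18 differs between groups was not tested.

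Under restricted feeding 1 member, Hsph1, was lower. Averaged over both genotypes, a contrast added after seeing the data, Hsph1 was lower on TRF than on ALF with a log2 fold change of -0.15 ± 0.03 (adjusted p = 0.00434, limma), the only one of 10 members to pass. Of all genes 1.68% passed, 0.975% lower. By genotype the log2 fold change was -0.16 ± 0.04 in TG mice (adjusted p = 0.0563, limma) and -0.15 ± 0.05 in NTG mice (adjusted p = 0.267, limma). The estimates were nearly equal, and their difference was -0.01 ± 0.06 (adjusted p = 0.997, limma). With 16 separate group means in place of the additive model, the averaged difference was -0.14 and did not pass (adjusted p = 0.166, limma). With any 1 animal left out, the highest adjusted p was 0.00906 (limma). The number series was uneven between the feedings: all animals with digit 2 but the one labelled TG_ALF_0_234 were on TRF. With the number series as a covariate the averaged difference still passed.

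At ZT12, Hsph1 had 7219, 7781, 8695, 9606 and 9669 normalized counts in TG mice on TRF, against 9453 to 10988 in TG mice on ALF (median 10297). It had 7988 to 10009 normalized counts in NTG mice on TRF (median 8891), against 9624 to 10365 in NTG mice on ALF (median 10051). In both genotypes the TRF animals reached lower, and the ranges overlapped at their edges. The log2 fold change at ZT12 was -0.22 ± 0.06 over both genotypes (adjusted p = 0.174, limma), and at ZT0 it was -0.13 ± 0.05 (adjusted p = 0.219, limma). Neither time gave a called member, against 0.00701% of all genes at ZT12 and 0.0491% at ZT0. At an unadjusted p under 0.05, Hsph1 was the 1 member at ZT12 among 683 genes, and Hsph1 and Dnajb1 were the 2 members at ZT0 among 2420 genes.

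No other member passed for feeding. In TG mice 0 members were called by limma, against 0.54% of all genes, with 1 member and 2433 genes at an unadjusted p under 0.05. In NTG mice 0 members were called, against 0.0281% of all genes, with 3 members and 1065 genes at an unadjusted p under 0.05. Those 3 were Hsph1, Dnaja4 and Dnajb1, all lower on TRF. Dnajb1 had a log2 fold change of 0.09 ± 0.05 in TG mice and -0.15 ± 0.05 in NTG mice, and the difference of 0.24 ± 0.07 did not pass (adjusted p = 0.929, limma). Genotype by feeding gave 0 members and 0 genes by limma, with 1 member and 745 genes at an unadjusted p under 0.05. Averaged over the times, Dnajb1 had means of 2053 ± 257 normalized counts in TG mice on TRF, 1924 ± 267 in TG mice on ALF, 1855 ± 271 in NTG mice on TRF and 2066 ± 231 in NTG mice on ALF (SD, n = 18, 19, 16 and 16).

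The transgene was not accompanied by a called change of any member. TG against NTG gave 0 of 10 on TRF (limma, 0.133% of all genes), with 3 members and 989 genes at an unadjusted p under 0.05. On ALF it gave 0 of 10 (0.189% of all genes), with 1 member and 1041 genes at that level. Averaged over both feedings, also added after seeing the data, 0 of 10 passed (0.449% of all genes), with 1 member and 1157 genes at an unadjusted p under 0.05. That member was Hspa1b, with a log2 fold change of 0.20 ± 0.06 (adjusted p = 0.149, limma). Hspa1b had 348 to 859 normalized counts in TG mice (median 449) and 264 to 681 in NTG mice (median 415). Hspa1b was higher in TG mice in both feedings, by 0.19 ± 0.08 on TRF (adjusted p = 0.672, limma) and 0.20 ± 0.08 on ALF (adjusted p = 0.578, limma). With array weights, and without the 5 libraries of lowest correlation, it passed.

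The remaining genes of the chaperone network were read from lists by role, to see how far the daily change of the members extended. Of the listed heat shock factors and their regulator, 4 of 5 were measured. Hsf1, the factor that switches these genes on, had -0.10 ± 0.07 for ZT12 over ZT0 (adjusted p = 0.312, limma) and 0.30 ± 0.11 for ZT18 over ZT6 (adjusted p = 0.0712, limma). Hsf2 had 0.06 ± 0.04 (adjusted p = 0.281, limma) and -0.12 ± 0.07 (adjusted p = 0.329, limma). Hsbp1, which binds heat shock factor 1, was higher at ZT12 (0.17 ± 0.06, adjusted p = 0.0458, limma), the 1 gene of this list to pass in either contrast.

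Of 9 other HSP70 and HSP110 genes, 4 were lower and 1 was higher at ZT12 than at ZT0, with a list median of -0.13 on the log2 scale. Hspa4 (-0.21 ± 0.03), an HSP110 protein, and its relative Hspa4l (-0.21 ± 0.05) were lower, as was Hspa1l (-0.22 ± 0.05). Hspa14, an HSP70 bound to ribosomes, was higher (0.17 ± 0.04). Between ZT18 and ZT6 the 1 gene that passed was Hspa1a, higher at ZT18, and the list median was 0.04.

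Of 19 measured genes for HSP90 and its co-chaperones, 5 were lower and 3 higher at ZT12, with a median of -0.04, and 4 were higher and none lower at ZT18 than at ZT6, with a median of 0.10. Chordc1, an HSP90 co-chaperone, changed in the manner of Stip1, with log2 fold changes of -0.41 ± 0.06 for ZT12 over ZT0 and 0.59 ± 0.09 for ZT18 over ZT6 (adjusted p = 7.35e-08 and 1.47e-06, limma). Fkbp4, an immunophilin of steroid receptor complexes, had -0.19 ± 0.05 and 0.41 ± 0.07 (adjusted p = 0.00123 and 2.56e-05, limma). Ptges3, the co-chaperone p23, was lower at ZT12 (-0.23 ± 0.05), and Ahsa2, related to an activator of the HSP90 ATPase, was higher at ZT18 (0.44 ± 0.07). Fkbp5 went the other way at ZT12 (0.53 ± 0.06, adjusted p = 4.31e-10, limma). This gene is a known target of the glucocorticoid receptor. The other 2 genes higher at ZT12 were Rpap3, which works in the assembly of RNA polymerase (0.25 ± 0.04), and the phosphatase gene Ppp5c (0.16 ± 0.04). Hsp90ab1, the constitutive HSP90, had -0.11 ± 0.04 for ZT12 over ZT0 (adjusted p = 0.0263, limma) and 0.08 ± 0.06 for ZT18 over ZT6 (adjusted p = 0.472, limma).

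Of 10 nucleotide exchange and assembly factors of HSP70, 3 were lower and 2 higher at ZT12, with a median of 0.0048, and none passed between ZT18 and ZT6. The lower ones were Bag3, which directs clients to autophagy (-0.34 ± 0.06), St13, also called HIP (-0.25 ± 0.05), and Bag6 (-0.11 ± 0.04). The higher ones were Bag5 (0.14 ± 0.04) and Hspbp1 (0.18 ± 0.06). Of 17 further cytosolic J-proteins, 1, Dnajb2, was lower (-0.22 ± 0.06) and 2, Dnajc8 (0.15 ± 0.03) and Dnajb6 (0.10 ± 0.04), were higher at ZT12 (median -0.02), and 2 were higher at ZT18, Dnajb4 (0.34 ± 0.06) and Dnajb2 (0.26 ± 0.08). Of 3 measured small heat shock proteins, Cryab passed in both contrasts with the directions of Hspb1, -0.39 ± 0.08 for ZT12 over ZT0 and 0.54 ± 0.12 for ZT18 over ZT6 (adjusted p = 6.71e-05 and 0.00108, limma). Of the 8 subunits of the cytosolic CCT chaperonin, 2 were lower at ZT12 and none passed at ZT18, and of 10 mitochondrial chaperones 2 were higher and 1 lower at ZT12 and none passed at ZT18. Outside the cytosol, 14 of 17 chaperones of the endoplasmic reticulum were lower at ZT12 (median -0.30) and 12 of 17 were higher at ZT18 (median 0.37).

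Markers of other cell types were set beside the time contrasts. Of 12 endothelial markers, 8 were lower and 2 higher at ZT12 than at ZT0, with a median log2 fold change of -0.31. Their summed level ran from 6169 to 12351 normalized counts at ZT12 (median 10182) and from 6823 to 14759 at ZT0 (median 12369), and no marker was at 0. Between ZT18 and ZT6 none of the 12 passed. Of 14 markers of hippocampal neurons 1 was lower and 1 higher at ZT12, and of 12 astrocyte markers 3 were lower and 1 higher. Of 18 myelin markers 5 were lower and 2 higher, of 12 microglial markers 3 were lower and 1 higher, of 12 markers of meninges and ependyma 3 were lower, and of 10 interneuron markers 3 were higher. Of 18 immediate early genes, which mark recent neuronal activity, 16 were lower at ZT12 and 8 were lower at ZT18 than at ZT6. With the choroid plexus level as a covariate 7 members were still lower at ZT12, and with the myelin level all 8 were, and 5 were still higher at ZT18 with either. Between animals of 1 group, the endothelial, myelin and choroid plexus levels passed with no member (lowest adjusted p = 0.062, 0.18 and 0.068 over 80 pairs, permutation). For the endothelial level the lowest was that of Hspb1 (r = 0.37, rho = 0.28), where r was 0.22 without 2 animals. No endothelial covariate was fitted. The immediate early level passed with 1 member, Dnajb1: r = 0.44 and rho = 0.43 (permutation p = 0.0012 and 0.0022, adjusted p = 0.012 and 0.019), r was 0.40 without 2 animals, and 0.50, 0.51, 0.72 and 0.10 in the number series with digits 0, 1, 2 and 3. The part of the other markers in the members' values was not tested.

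The animals of 1 group also differed among themselves, and the members did not vary together as 1 block. After the mean of each of the 16 groups was taken off, Hspb1 had the widest spread, with an SD of 0.432 on the log2 scale, followed by Hspe1 with 0.402. Dnaja4 had the narrowest, 0.112. Of the 45 pairs of members, 15 were positively and 5 negatively correlated over the 69 animals (permutation within groups, adjusted p under 0.05 over the 45 pairs), and the median Pearson r was 0.21.

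The closest pair was Hspa8 with Hsp90aa1, for which r = 0.89 and rho = 0.89 (permutation p = 1e-05 and 1e-05, adjusted p = 0.00015 and 0.00015), and r was 0.87 without the 2 animals farthest from the median of the first gene of the pair. Within the animals with digits 0, 1, 2 and 3, r was 0.68, 0.84, 0.88 and 0.95 (n = 15, 23, 7 and 24). For Hspe1 with Hspd1, r = 0.69 and rho = 0.59 (permutation p = 1e-05 and 1e-05, adjusted p = 0.00015 and 0.00015), and r was 0.63 without 2 animals and 0.79, 0.77, 0.15 and 0.58 in the 4 series. Hsph1 stood close to both Hspa8 and Stip1. With Hspa8, r = 0.63 and rho = 0.61 (permutation p = 1e-05 and 1e-05, adjusted p = 0.00015 and 0.00015), and r was 0.58 without 2 animals and positive in all 4 series, at 0.76, 0.39, 0.74 and 0.54. With Stip1, r = 0.63 and rho = 0.54 (permutation p = 3e-05 and 0.00018, adjusted p = 0.00034 and 0.0013), and r was 0.54 without 2 animals. In the 4 series that relation was 0.82, 0.64, 0.88 and -0.27, so it did not hold in the series with digit 3. In that series r was also negative for Stip1 with Hspa8 (-0.17) and with Hsp90aa1 (-0.20), against 0.47 and 0.34 over all animals.

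Among Dnaja4, Hspb1, Hspa1b and Dnajb1, 4 of the 6 pairs passed. Those that did not were Dnaja4 with Hspa1b (r = 0.28, rho = 0.30, permutation p = 0.042 and 0.029, adjusted p = 0.074 and 0.051) and Hspb1 with Dnajb1, where r = 0.30 missed the threshold and rho = 0.38 did not (permutation p = 0.045 and 0.0052, adjusted p = 0.074 and 0.012). Hspe1 also passed with Dnajb1 (r = 0.50, rho = 0.51, permutation p = 0.00039 and 0.00026, adjusted p = 0.0019 and 0.0015), Dnaja4 (r = 0.43, rho = 0.40, permutation p = 0.00072 and 0.0031, adjusted p = 0.0029 and 0.0093) and Hspb1 (r = 0.38, rho = 0.33, permutation p = 0.012 and 0.012, adjusted p = 0.028 and 0.027), each of them negative in the 7 animals with digit 2. For Dnaja4 with Hspb1, r = 0.50 and rho = 0.48 (permutation p = 0.0001 and 9e-05, adjusted p = 0.00071 and 0.001), and r was 0.40 without 2 animals and 0.03, 0.66, 0.21 and 0.49 in the 4 series. For Hspa1b with Hspb1, r = 0.42 and rho = 0.45 (permutation p = 0.0031 and 0.00083, adjusted p = 0.0092 and 0.0037), and r was 0.37 without 2 animals. In the 4 series it was 0.57, 0.03, -0.17 and 0.51, so that relation did not hold in all of them. The most negative pair was Hsp90aa1 with Hspe1, for which r = -0.54 and rho = -0.50 (permutation p = 7e-05 and 0.00023, adjusted p = 0.00063 and 0.0015), and r was -0.50 without 2 animals. It was negative in each series, at -0.39, -0.68, -0.46 and -0.09. For Hspb1 with Hsp90aa1, r = -0.49 and rho = -0.45 (permutation p = 0.00033 and 0.00091, adjusted p = 0.0019 and 0.0037), and r was -0.42 without 2 animals. There r was 0.38 in the 7 animals with digit 2, and -0.36, -0.21 and -0.71 in the series with digits 0, 1 and 3.

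**Figure D4:**
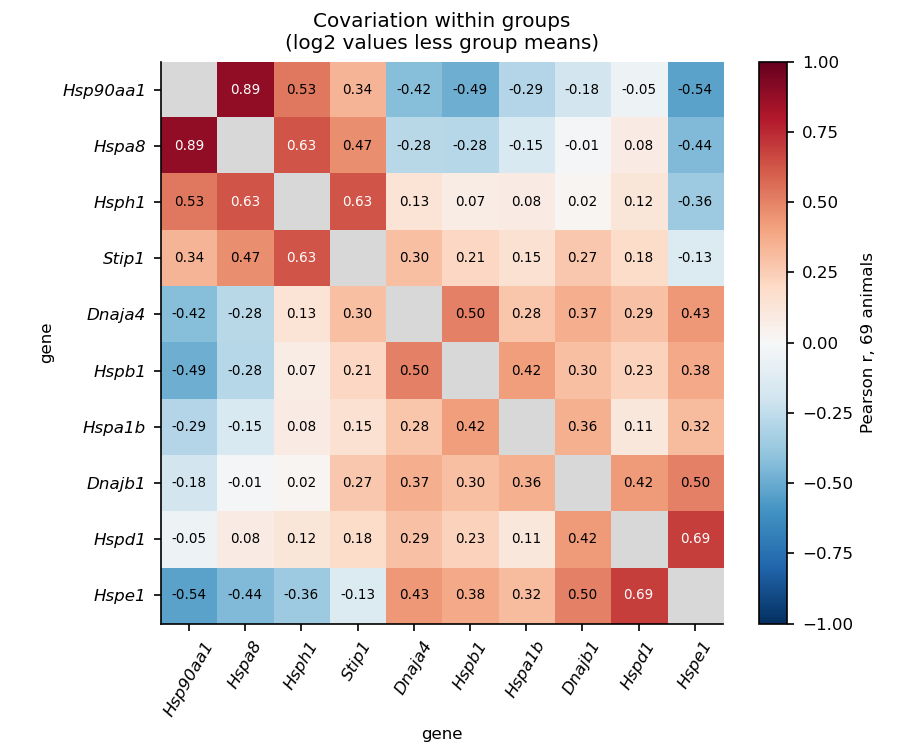
Pearson r between the members over 69 animals, on log2 values less the mean of the animal's group of genotype, feeding and time, from -1 (blue) to 1 (red). Hsp90aa1, Hspa8, Hsph1 and Stip1 form the red block at the upper left, with r from 0.34 to 0.89. Hspe1 is blue against Hsp90aa1 (-0.54), Hspa8 (-0.44) and Hsph1 (-0.36). In the number series with digit 3 alone, Stip1 was negatively correlated with Hsph1 (-0.27), Hspa8 (-0.17) and Hsp90aa1 (-0.20).

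Several members also varied with the level of the 76 listed genes for cytosolic ribosomal proteins, taken as their mean log2 value, a comparison added after seeing the data. Over the 69 animals, again less group means, it went with Hspe1: r = 0.86 and rho = 0.88 (permutation p = 1e-05 and 1e-05, adjusted p = 0.00027 and 0.0004), adjusted over 80 pairs of a list and a member. It also went with Hspd1 (r = 0.59, rho = 0.49, permutation p = 3e-05 and 0.00026, adjusted p = 0.0006 and 0.0052), with Dnaja4 (r = 0.46, rho = 0.45, permutation p = 0.00045 and 0.00076, adjusted p = 0.006 and 0.0091) and with Dnajb1 (r = 0.45, rho = 0.46, permutation p = 0.0006 and 0.0008, adjusted p = 0.0069 and 0.0091). It was lower where Hsp90aa1 was higher (r = -0.45, rho = -0.50, permutation p = 0.0017 and 0.00044, adjusted p = 0.015 and 0.007), and likewise for Hsph1 (r = -0.41, rho = -0.42, permutation p = 0.0021 and 0.0025, adjusted p = 0.015 and 0.019) and Hspa8 (r = -0.38, rho = -0.41, permutation p = 0.0039 and 0.0021, adjusted p = 0.024 and 0.019). For Stip1 there was no relation past the threshold over all animals (r = 0.07, rho = 0.09, permutation p = 0.57 and 0.49, adjusted p = 0.74 and 0.74). In the series with digits 0, 1, 2 and 3 its r was 0.27, 0.39, -0.79 and 0.55, so the series differed in sign. Without the 2 animals farthest in the ribosomal level, r was 0.85 for Hspe1, 0.55 for Hspd1, -0.48 for Hsp90aa1 and -0.43 for Hsph1. Leaving out the 5 libraries that correlated least with the others was not tried for the correlations. For Hspe1, r was 0.83, 0.87, 0.57 and 0.90 in the series with digits 0, 1, 2 and 3. For Hsp90aa1 it was 0.00, -0.54, -0.92 and -0.19, and for Hsph1 0.16, -0.20, -0.95 and -0.66, so the negative relations did not hold in the series with digit 0. For Hspd1, Dnaja4 and Dnajb1 the relation turned round in the 7 animals with digit 2, where r was -0.60, -0.61 and -0.73, and it was positive in the other 3 series. With the ribosomal level as a covariate the ZT12 contrast and the ZT18 contrast kept all 8 and all 5 called members.

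**Figure D5:**
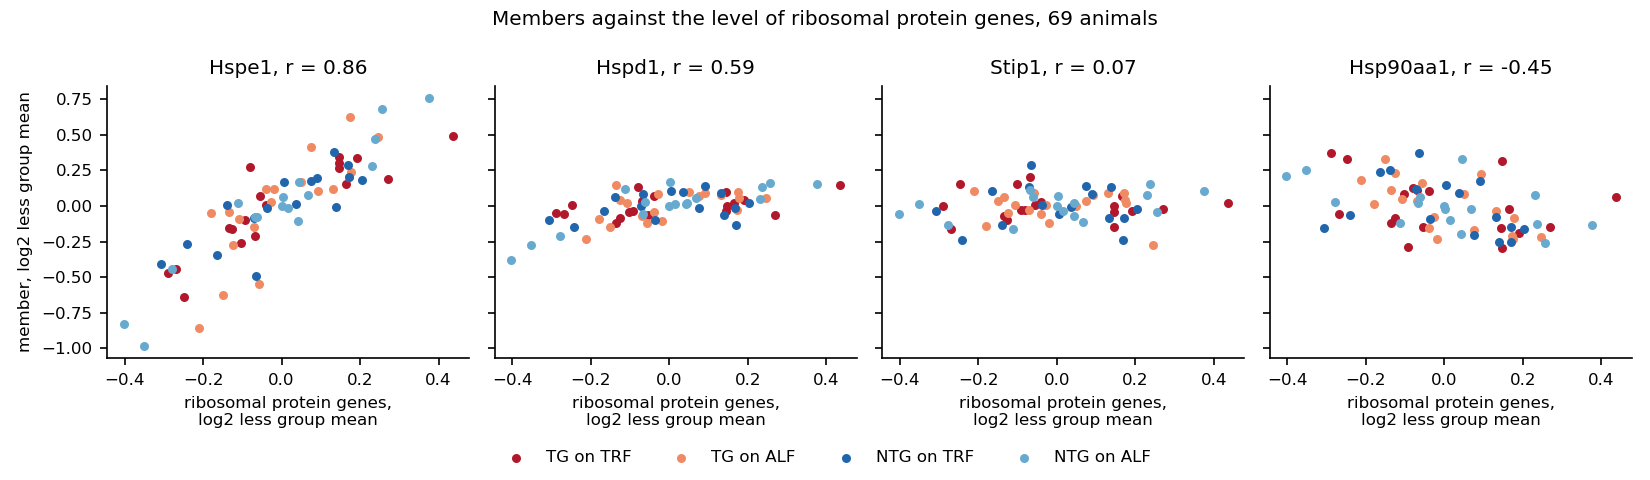
Log2 level of Hspe1, Hspd1, Stip1 and Hsp90aa1 (vertical axes) against the mean log2 level of 76 ribosomal protein genes (horizontal axes), both less the group mean, with 1 point per animal coloured by genotype and feeding. Hspe1 climbs steeply along the axis (r = 0.86), Hspd1 climbs less, Stip1 is flat over all animals together (r = 0.07) and Hsp90aa1 slopes down (r = -0.45).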

How the data were processed

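Poly-A RNA of 70 hippocampal libraries was sequenced in paired reads of 150 bases, per the labels' protocols. HISAT2, featureCounts, DESeq2 and the build GRCm38 stand in the submitters' processing notes, and their versions are not given in the sources used here. The deposited values are a normalized signal, gene read counts that the authors divided by 1 factor per library. Within a library 100% of the values were whole multiples of 1 step (tolerance 0.01 of a step). Read as reads, these multiples sum to 27.9 to 47.1 M reads per library (median 37.2 M). No gene averaged below 40.8 normalized counts, so precision was taken from the spread between animals.

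Libraries 232 and 232R of NTG on TRF at ZT12 were averaged as 1 animal, a reading of the labels, which left 69. Fold changes and p-values came from limma 3.58.1 in R 4.3.3 (variance trend, robust) on log2(normalized count + 1), with all genes and animals in 1 fit and Benjamini-Hochberg adjustment over 14260 genes at 0.05. The code was tested on simulated data. Comparisons over all groups used 4 genotype and feeding means plus time, and those within a group or at 1 time used 16 group means. Adding 1 to each value slightly understates the changes of low genes. Correlations used 100000 permutations within groups, so the smallest possible p is 1e-05. From each other gene list, the text names at most the 3 genes of smallest p in each direction, plus Hsf1, Hsf2, Hspa1a and Hsp90ab1, and for each member the 3 genes most alike. The members and lists were chosen with earlier results of these data known.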

Additional observations from a re-analysis of the deposited data

Results flagged for a closer look

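Each member was checked in each group of 4 to 10 animals of 1 genotype, feeding and time for a single animal far from the others (Dixon's test at the 95% level). Of 100 such checks 8 stood out, and chance alone gives about 5 of 100. Hspb1 had 561 normalized counts in 1 animal of TG on TRF at ZT0 (labelled TG_TRF_0_102), where the next animal had 310. Hspb1 also had 510.1 in 1 animal of NTG on TRF at ZT0 (labelled WT_TRF_0_116), against 283 in the next, and the same animal had the highest Dnajb1 of its group, 2175 against 1929.9. Stip1 was lowest in 1 animal of TG on ALF at ZT0 (labelled TG_ALF_0_234), with 6469 against 8028 in the next, and highest in 1 animal of TG on TRF at ZT12 (labelled TG_TRF_12_24), with 6507 against 5745. Dnajb1 was highest in 1 animal of NTG on TRF at ZT12 (labelled WT_TRF_12_142), with 1813 against 1682. Hspe1 was lowest in 1 animal of TG on ALF at ZT12 (labelled TG_ALF_12_109), with 1061 against 1588. Hspd1 was highest in 1 animal of TG on TRF at ZT6 (labelled TG_TRF_6_307), with 7576 against 6671.5.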

How the results depend on the processing

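The settings tried were another pseudocount, a filter on low values, quantile normalization, equal library totals, array weights, plain variances, only the first of the 2 libraries averaged as 1 animal, covariates for choroid plexus, myelin and number series, ZT0 and ZT12 alone, 16 group means and, added after seeing the data, voom weights on the whole multiples, a ribosomal covariate and leaving out the 5 libraries of lowest correlation. Under them 7 to 8 members were called for ZT12 against ZT0 and 5 to 7 for ZT18 against ZT6. Of 429 alternative values of the 30 named fold changes none changed sign and 17 lost the call. Among these, Dnaja4 lost its call in TG mice on ALF with quantile normalization (adjusted p = 0.0697, limma) and in NTG mice on TRF with equal totals (0.0723). With array weights 7 members passed for ZT12 against ZT0 in NTG mice on ALF, 1 for TRF against ALF at ZT12 (Hsph1, lower) and 1 for TG against NTG averaged over feedings (Hspa1b, higher), and 1 passed for the last also without the 5 libraries. For TRF against ALF in TG mice 1 member, Hsph1, passed with array weights, quantile normalization and equal totals. For TRF against ALF averaged over genotypes 0 passed with 16 group means. The cause was not tested.

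Leaving out each animal in turn gave 8 to 9 members in the F test, 7 to 8 for ZT12 against ZT0 and 5 to 6 for ZT18 against ZT6. It gave 2 to 4 for ZT12 against ZT0 in TG mice on TRF, 2 to 4 in TG mice on ALF, 3 to 5 in NTG mice on TRF and 3 to 5 in NTG mice on ALF. For TRF against ALF it gave 0 to 1 in TG mice and 1 to 1 averaged over genotypes, and 0 to 0 in every other comparison. No paired analysis was possible because the animal numbers are not shared between the groups compared. The residual correlations named here kept their sign without 2 animals.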

Other observations

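Members also varied between animals of 1 group with the cold-inducible RNA-binding genes Rbm3 and Cirbp, taken as their mean log2 level less group means. With Hsph1, r = -0.66 and rho = -0.58 (permutation p = 1e-05 and 2e-05, adjusted p = 0.00027 and 0.00053), adjusted over 80 pairs of a list and a member. Without the 2 animals farthest from the median of that level r was -0.64, and in the series with digits 0, 1, 2 and 3 it was -0.33, -0.65, -0.94 and -0.65. With Stip1, r = -0.51 and rho = -0.38 (permutation p = 0.00031 and 0.0044, adjusted p = 0.005 and 0.029). It was -0.57 without 2 animals, and -0.36, -0.67, -0.97 and -0.02 in the 4 series, so it did not hold in the series with digit 3. With Hspb1, r = -0.01 and rho = -0.00 (permutation p = 0.94 and 1, adjusted p = 0.98 and 1), which did not pass. The mean level of the 17 chaperones of the endoplasmic reticulum went with Stip1, where r = 0.60 and rho = 0.60 (permutation p = 1e-05 and 1e-05, adjusted p = 0.00027 and 0.0004), r was 0.56 without 2 animals, and the 4 series had 0.26, 0.71, 0.52 and 0.65. It also went with Dnajb1 (r = 0.46, rho = 0.37, permutation p = 0.0033 and 0.0073, adjusted p = 0.022 and 0.039), with 0.25, 0.47, 0.86 and 0.71 in the 4 series. Dnajb1 passed too with the mean level of 16 glucocorticoid-induced genes (r = 0.40, rho = 0.38, permutation p = 0.002 and 0.0026, adjusted p = 0.015 and 0.019), with 0.21, 0.39, -0.03 and 0.43 in the 4 series.

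The genes whose log2 levels were most like a member over all 69 animals, group differences included, are given by Pearson r as a description. For Stip1 they were Calr (0.90), Pdia6 (0.84) and Hsph1 (0.84), the first pair of which work in the endoplasmic reticulum. For Hsph1 they were Caprin1 (0.86), Hsp90b1 (0.85) and Pdia3 (0.84), and for Hspa8 Caprin1 (0.88), Hsp90aa1 (0.87) and Syt4 (0.83). For Hsp90aa1 they were Kpna1 (0.93), Tax1bp1 (0.92) and Syt4 (0.92). For Dnaja4 they were Pdia6 (0.84), Rmdn3 (0.81) and Hspb1 (0.79), for Hspb1 Dnaja4 (0.79), Hexim1 (0.76) and Rexo4 (0.76), and for Dnajb1 Hexim1 (0.79), Manf (0.78) and Xbp1 (0.77). For Hspa1b they were Ncoa5 (0.75), Hspb1 (0.74) and Hspa1a (0.74), of which Hspa1a shares sequence with it. Of the chaperonin genes, Hspe1 was most like Cox7c (0.94), Nop10 (0.94) and Uqcr10 (0.94), and Hspd1 was most like the J-domain gene Dnaja1 (0.85), Sfr1 (0.83) and Uba3 (0.82).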
